A study of Mus musculus with 8 samples.

Results

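Igfbp4, Pdlim4, St8sia6, Nacc2, Myo10, Vipr1, Trib2, Klhl5, Selenop and Trat1 are 10 mouse genes, of 32285 features counted, that lead the resting clusters of CD4 T cells from the pancreas of diabetic mice. They were chosen from clusters of the same cells, so their high level in resting CD4 cells is a description of that choice and was given no test. Their UMIs, the molecule counts of single-cell sequencing, were summed over CD4 T cells (at least 1 Cd4 UMI and none of Cd8a or Cd8b1), divided into Foxp3-negative and Foxp3-positive cells, and over CD8 T cells (the reverse). In all 8 libraries together these gates held 22773 CD4 Foxp3-negative, 874 CD4 Foxp3-positive and 18821 CD8 cells of 80470 barcodes. All 10 symbols were found in every library.

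The mice were NOD mice 3 to 4 months of age, labelled female although 4 of the 8 libraries carry Y-linked transcripts, of a strain that develops autoimmune diabetes without a transgene, and every group was diabetic. The active library came from mice with blood glucose above 600 mg/dl and the onset library from mice at 250 mg/dl, both without treatment. The other libraries came from mice given PPCA, which is Nutlin-3 at 50 mg/kg with MK-1775 at 25 mg/kg, or vehicle (ethanol, Tween 20 and PEG300), 1 library each on days 2, 3 and 4. Nutlin-3 blocks MDM2 and so stabilises p53, and MK-1775 inhibits the cell cycle kinase WEE1. Treatment was daily, harvest followed on the next day, and sorted CD45+ CD3+ TcR-beta+ cells were frozen before the libraries were made together. The labels do not give the number of mice in a library, so p-values measure only the spread between these libraries.

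A resting CD4 T cell recirculates through lymphoid tissue, guided by homing receptors such as Ccr7, and is kept quiescent by factors such as Lef1, Tcf7, Satb1 and Klf2. Contact with antigen induces immediate early genes such as Nr4a1 and Egr1, and differentiation replaces the homing programme with effector genes such as S100a4 and Ccl5. The 10 genes do not form 1 pathway. Igfbp4 encodes a secreted protein that binds insulin-like growth factors, Selenop a secreted selenium carrier, and Vipr1 the VPAC1 receptor for vasoactive intestinal peptide. Trat1 is a transmembrane adaptor of the T cell receptor complex, and St8sia6 adds sialic acid in alpha-2,8 linkage to glycans. Pdlim4 is a PDZ and LIM protein linked to the actin cytoskeleton, and Myo10 is an unconventional myosin of filopodia. Trib2 is a pseudokinase that recruits the ubiquitin ligase Cop1, Klhl5 belongs to the BTB-Kelch family of Cullin-3 adaptors, and Nacc2 is a BTB transcriptional repressor.

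The promoters of 4 of these genes are shown as examples. St8sia6 and Nacc2 were the pair most alike across libraries, Trat1 carries 2 of the searched motifs, and Igfbp4 stood first in the authors' deposited table for naive CD4 cells. Each is the 250 bases before a start of the gene listed in RefSeq on GRCm38.p6, written toward the gene. A check against annotated transcripts matched the listed start for Igfbp4 and Nacc2. It matched no transcript for St8sia6 and Trat1. Igfbp4 lies on the plus strand (chr11:99040994-99041243), and the minus strand carries St8sia6 (chr2:13793521-13793770), the second listed Nacc2 promoter (chr2:26122812-26123061) and Trat1 (chr16:48772063-48772312). Capitals mark exact matches on either strand to CTTTGA (TCF/LEF), GTAAACA (FOXO), TGTGGT (RUNX), CCACACCC (KLF), CCGGAA (ETS) or GGGCGG (GC box).
Igfbp4: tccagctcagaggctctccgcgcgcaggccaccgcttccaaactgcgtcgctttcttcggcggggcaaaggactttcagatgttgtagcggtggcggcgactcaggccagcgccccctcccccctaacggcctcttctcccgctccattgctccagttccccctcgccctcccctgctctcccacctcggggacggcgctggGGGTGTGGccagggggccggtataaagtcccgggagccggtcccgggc
St8sia6: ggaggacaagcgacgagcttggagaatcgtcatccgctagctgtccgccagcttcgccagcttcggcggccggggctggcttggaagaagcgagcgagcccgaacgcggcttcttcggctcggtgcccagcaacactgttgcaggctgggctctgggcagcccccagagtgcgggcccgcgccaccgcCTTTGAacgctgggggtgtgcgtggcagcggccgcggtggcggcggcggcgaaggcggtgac
Nacc2: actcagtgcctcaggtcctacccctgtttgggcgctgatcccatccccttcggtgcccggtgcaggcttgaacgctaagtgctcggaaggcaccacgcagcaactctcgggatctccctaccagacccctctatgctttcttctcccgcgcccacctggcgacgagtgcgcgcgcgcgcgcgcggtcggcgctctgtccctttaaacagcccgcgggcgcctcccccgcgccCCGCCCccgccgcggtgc
Trat1: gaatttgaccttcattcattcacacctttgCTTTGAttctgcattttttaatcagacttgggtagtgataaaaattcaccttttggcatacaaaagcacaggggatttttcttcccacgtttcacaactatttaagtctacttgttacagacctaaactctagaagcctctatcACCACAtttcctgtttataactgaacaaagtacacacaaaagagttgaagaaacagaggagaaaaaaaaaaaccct

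The St8sia6 promoter holds the TCF/LEF letters 62 bases before the listed start and the Trat1 promoter 220 bases before it. The Trat1 promoter also holds the RUNX letters at 76 bases, the Igfbp4 promoter the KLF letters at 48 bases and the Nacc2 promoter a GC box at 18 bases. No 2 matches shared a base in these 4 sequences. Of the 10 genes, 2 carried TCF/LEF, 2 RUNX, 1 KLF, 1 FOXO (Selenop), 0 ETS and 6 a GC box in at least 1 listed promoter. Counted in the same way over 27025 genes with a listed promoter, the shares of genes were 15.9% for RUNX, 15.8% for TCF/LEF, 3.68% for KLF, 3.54% for FOXO, 13.6% for ETS and 35.4% for a GC box. The 10 genes have 15 listed promoters, up to 3 for a gene (Selenop). St8sia6 and Nacc2 have a CpG-rich promoter (30 CpG in each, with 70.8% and 69.6% G and C), while that of Trat1 has 1 CpG and 35.2% G and C. The median promoter has 6 CpG and 52.4% G and C. The genome build of the deposited counts is not given in the sources used here, so these coordinates belong to the RefSeq sequences and not to the counts.

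Libraries held 36934580 to 67603740 UMIs, and cells of the CD4 Foxp3-negative gate had a median of 3807 UMIs (PPCA day 4) to 6045 (active). The gate sums held 10495939 to 20101052 UMIs in CD4 Foxp3-negative cells. Some libraries stood apart from their labels or from the rest. All mice are labelled female, yet in CD4 Foxp3-negative cells the summed Y-linked genes Ddx3y, Eif2s3y, Kdm5d and Uty stood at 197 to 287 CPM (counts per 1000000 UMIs of the sum) in vehicle day 2, vehicle day 3, PPCA day 3 and PPCA day 4. They stood at 0 to 0.359 CPM in the other 4 libraries. Xist, the RNA of the inactive X chromosome, stood at 0.39 to 0.953 CPM in the first 4 and at 395 to 552 CPM in the others. Summed transcripts of 10 genes listed for recent receptor triggering stood at 4982 CPM (vehicle day 4) and 7840 CPM (PPCA day 4), against 841 to 2061 CPM in the other libraries. Fos, Jun, Hspa1a and Hspa1b, stress genes that tissue dissociation is known to induce, stood apart in the same libraries, at 1537 and 2097 CPM together against 252 to 927 CPM elsewhere. Hspa1a alone stood at 118 CPM in PPCA day 2 and at 0.840 to 27.3 CPM in the others. Summed effector genes stood at 1300 CPM in PPCA day 4 and at 486 to 738 CPM elsewhere. No pair of libraries shared over 41 barcodes, or 0.431% of a library.

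CD4 Foxp3-negative cells held more of every member than CD8 cells of the same library. All 10 were at least 2-fold higher in 8 of 8 libraries, which 39 of 7258 genes averaging at least 10 CPM did (0.537%). Since the members were chosen on these cells, nothing is read from that count. Pdlim4 had the widest gap of the 10. Its level in CD4 Foxp3-negative cells was 100.8 CPM at the lowest, 136 at the median and 183 at the highest over 8 libraries, against 5.68, 10.2 and 21.8 CPM in CD8 cells. The ratio within a library was 14.8-fold at the median (8.28 to 22.8). Myo10 was 13.8-fold higher (7.54 to 27.3) and St8sia6 12.7-fold higher (8.01 to 20.3). Their levels in CD8 cells were 0.805 to 3.69 CPM for Myo10, from 12 to 38 UMIs in a library, and 3.22 to 10.6 CPM for St8sia6, from 43 to 101 UMIs. The next group comprised Nacc2 at 4.25-fold, Klhl5 at 4.17-fold and Trat1 at 3.56-fold. Trib2 followed at 2.95-fold, Vipr1 at 2.84-fold, Selenop at 2.29-fold and Igfbp4 at 2.22-fold.

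**Figure D1:**
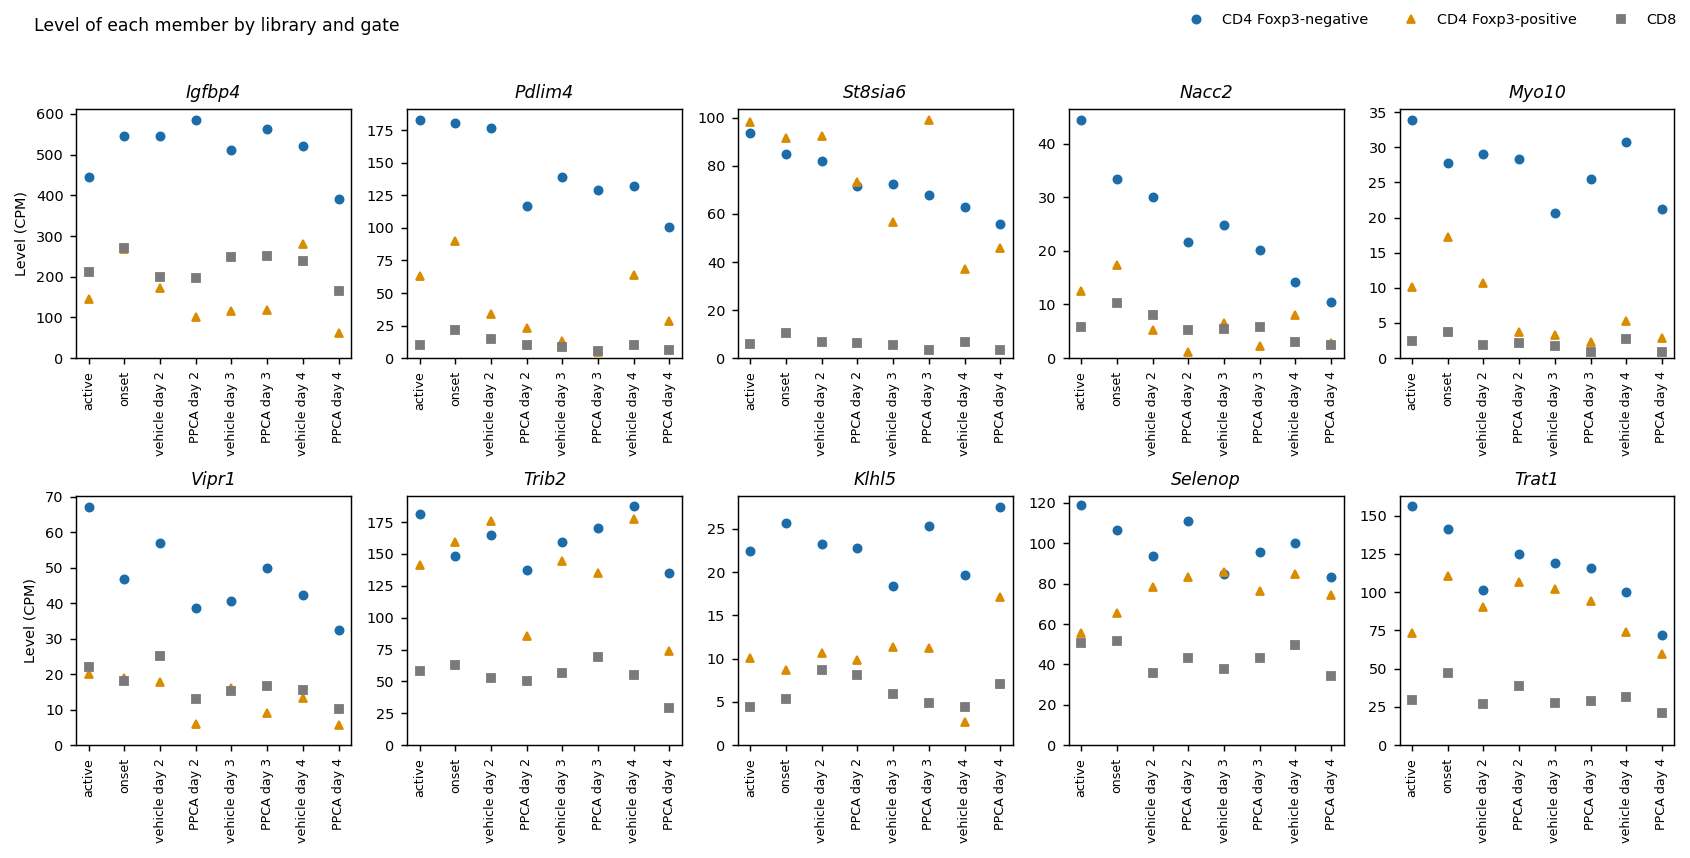
Level of each of the 10 genes in 8 libraries, in CPM (vertical axis, from 0), with the libraries on the horizontal axis and 1 point per gate. CD4 Foxp3-negative sums (circles) lie above CD8 sums (squares) in all 8 libraries for all 10 genes, while CD4 Foxp3-positive sums (triangles) reach the circles for St8sia6 and, in most libraries, lie near them for Trib2, Selenop and Trat1.

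Regulatory CD4 cells, marked here by Foxp3, divided the members. Igfbp4 stood at 146 CPM in active, 268 in onset and 62.8 to 281 CPM in the 6 vehicle and PPCA libraries, against 390.5 to 586 CPM in Foxp3-negative cells, so the gates did not overlap. It was 3.72-fold lower in Foxp3-positive cells at the median, and lower than in CD8 cells in 7 of 8 libraries. Pdlim4 was 4.22-fold lower, Myo10 3.56-fold, Vipr1 3.27-fold, Nacc2 3.24-fold and Klhl5 2.24-fold, each in 8 of 8 libraries. These values rest on few molecules, since the 874 cells gave 159 UMIs of Pdlim4, 55 of Vipr1, 42 of Klhl5, 29 of Myo10 and 28 of Nacc2 in all, and sums under 3 UMIs were raised to 3. Of 7556 genes averaging at least 10 CPM, 307 were lower in Foxp3-positive cells in 8 of 8 libraries (4.06%), and 7 of the 10 members were. The members were chosen on resting CD4 cells, and Nacc2 and Myo10 reach that average through their Foxp3-negative level, so nothing is read from this count either.

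St8sia6, the sialyltransferase, did not follow that pattern. Its level in Foxp3-positive cells was 98.2 CPM in active, 91.7 in onset, 92.3 and 73.5 in vehicle and PPCA of day 2, 56.7 and 99.0 on day 3, and 37.1 and 45.6 on day 4. Foxp3-negative cells of the same libraries held 93.5, 85.1, 81.9, 71.8, 72.3, 68.0, 63.0 and 55.8 CPM. The Foxp3-positive level was the higher in 5 libraries and the lower in 3, with a median ratio of 1.04 (0.590 to 1.46), and it was above CD8 cells in 8 of 8 libraries. Trib2, Selenop and Trat1 stood at 0.847 (0.550 to 1.07), 0.816 (0.465 to 1.01) and 0.822 (0.468 to 0.891) of the Foxp3-negative level at the median, with the range over libraries. The lowest ratio of Selenop and of Trat1 was in active, and Trib2 was higher in Foxp3-positive cells in 2 libraries and Selenop in 1. By the median over libraries, the order of the gates was Foxp3-negative, Foxp3-positive, CD8 for Pdlim4, Myo10, Klhl5, Trib2, Selenop and Trat1. St8sia6 had the CD4 gates level with each other, Igfbp4 had CD8 in second place in 7 of 8 libraries, and for Vipr1 and Nacc2 the Foxp3-positive and CD8 gates changed places between libraries.

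**Figure D2:**
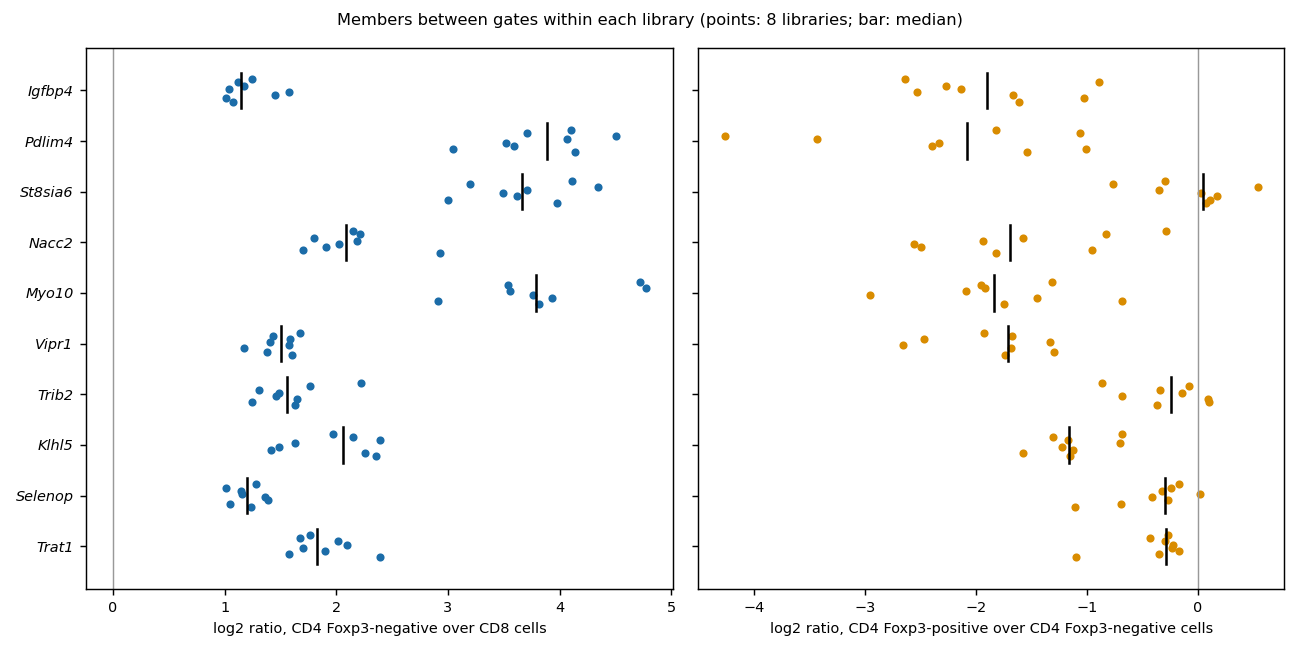
Log2 ratio of each gene between gates within a library (horizontal axes), with 1 point for each of 8 libraries and a bar at the median. On the left all points for CD4 Foxp3-negative over CD8 cells lie above 1, and on the right the points for CD4 Foxp3-positive over Foxp3-negative cells straddle 0 for St8sia6 and lie below it in 8 of 8 libraries for 7 genes; sums under 3 UMIs were raised to 3.

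The authors' deposited table of cluster markers lists 8 of the 10 genes for its cluster CD4 Naive, in which Igfbp4 ranks first and Pdlim4 second of 54 genes. In the authors' deposited table Igfbp4 was detected in 75.5% of the cells of that cluster, Trib2 in 47.4%, Pdlim4 in 46.9% and Myo10 in 11.8%. Nacc2 and Klhl5 are not among its genes. The authors' deposited table also lists Pdlim4 and Igfbp4 for its cluster CD4 Th1, in 44.1% and 72.5% of its cells. They rank 52 and 67 of 82 genes there. In the authors' deposited table St8sia6 is listed for the cluster CD4 Treg, in 20.6% of its cells, at rank 552 of 567. For CD4 Naive it is listed there in 26.5% of cells, at rank 12 of 54.

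Single cells carried few molecules of each member. After thinning every cell to 2000 UMIs, the share of CD4 Foxp3-negative cells with at least 1 UMI of Igfbp4 was 41.0% to 54.0% over the 8 libraries, with a median of 51.5%, against 21.3% to 32.8% of CD8 cells. Without thinning the median was 69.7%. The thinned median share was 21.4% for Pdlim4 against 1.83% in CD8 cells, 12.9% for St8sia6 against 1.24%, and 5.43% for Myo10 against 0.507%. Nacc2 was found in 3.81% of cells against 0.898%, Klhl5 in 4.6% against 1.11%, and Vipr1 in 8.17% against 2.77%. Trib2 was found in 25.8% against 10.1%, Trat1 in 20.3% against 6.28% and Selenop in 17.7% against 8.12%. The Foxp3-negative share was above the CD8 share for each gene. CD8 cells may carry these transcripts themselves, and how much of their share is free RNA was not measured. A Foxp3-negative cell held 1.84 to 2.67 UMIs of the 10 genes together on average, a Foxp3-positive cell 0.829 to 1.68 and a CD8 cell 0.539 to 0.958. The share of Foxp3-negative cells with at least 3 different members was 32.1% in active, 28.8% in onset and 15.7% in PPCA day 4, with the remaining libraries between 21.9% and 26.2%.

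Foxp3-negative cells with marks of recent receptor triggering were compared with cells without them in the same library, again as a description and after thinning. Several of these marks are immediate early genes, which tissue dissociation can also induce, and the 2 sources cannot be told apart here. Triggered-marked cells, with at least 2 UMIs over Nr4a1, Egr1, Egr2, Cd69 and Tnfaip3, were 10.6% of Foxp3-negative cells in PPCA day 2 and 26.1% to 38.6% in the other libraries outside day 4. On day 4 they were 82.1% (vehicle) and 87.9% (PPCA). Within a library the 10 genes together gave 0.932 times as many UMIs in triggered-marked as in cells with none of these transcripts, at the median, and were higher in 1 of 8 libraries. St8sia6, Trib2, Klhl5, Selenop and Trat1 were higher in 4 libraries and lower in 4. Pdlim4, Nacc2, Myo10 and Vipr1 were each higher in 2 of 8 libraries, with median ratios of 0.876, 0.952, 0.815 and 0.909. Igfbp4 was higher in triggered-marked cells in 1 of 8 libraries, with a median ratio of 0.877.

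PPCA against vehicle was the contrast that the choice of members did not use, and it was tested over 3 libraries in each arm with harvest day as a block. In CD4 Foxp3-negative cells edgeR's quasi-likelihood test with Benjamini-Hochberg adjustment called 0 of 11576 genes (0.0%) and 0 of the 10 members at an adjusted p of 0.05. At an unadjusted p under 0.05 it gave 767 of 11576 genes (6.63%), with Pdlim4, Nacc2, Trib2 and St8sia6 among them. DESeq2 called 39 genes and limma-voom 0, neither with a member among them. The estimate was below 0 for 9 of 10 members, with a median log2 fold change of -0.20, where 50.1% of all genes were below 0. Without the day 4 pair it was below 0 for 5 of 10, with a median of -0.09. Other lists were read in the same cells, each with 0 genes called and none tested as a list. The estimate was below 0 for 10 of 11 genes of the resting and naive state (median -0.16) and for 9 of 10 genes of triggering (median -0.26). It was above 0 for 9 of 11 effector genes (median 0.40), 6 of 6 tested regulatory genes (median 0.49) and 4 of 4 tested pancreatic genes (median 1.86). Their part in the members' values was not tested.

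Directions on single days depend on the scaling. The CPM used for them leave a median log2 ratio of 0.19 over all genes on day 3, which the TMM scaling of the fit brings to 0.00. Pdlim4 was the member whose PPCA and vehicle libraries did not overlap in CPM. It stood at 177, 139 and 132 CPM under vehicle on days 2, 3 and 4 and at 117, 129 and 100.8 CPM under PPCA. All 3 PPCA libraries lay below all 3 vehicle libraries, which 66 of 7217 genes averaging at least 10 CPM did (0.915%). With TMM scaling 274 genes did (3.8%), and of the members Pdlim4 and St8sia6. The means were 149.6 ± 24 CPM (SD, n = 3) and 115.7 ± 14.4 CPM (SD, n = 3), and the log2 fold change was -0.45 with a standard error of 0.10 (edgeR adjusted p = 0.52). With the presence of Y-linked transcripts as a further factor, which leaves a single residual degree of freedom, the adjusted p was 0.031, and without the filter on low counts it was 0.049.

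Nacc2, the BTB repressor, stood at 30.0, 24.7 and 14.1 CPM under vehicle and at 21.6, 20.1 and 10.5 CPM under PPCA. PPCA was the lower on each day, but the difference between days was larger, so the arms overlapped. The log2 fold change was -0.48 with a standard error of 0.11 (edgeR adjusted p = 0.53). St8sia6 was also lower on each day, at 81.9, 72.3 and 63.0 CPM under vehicle and 71.8, 68.0 and 55.8 CPM under PPCA. Its log2 fold change was -0.23 with a standard error of 0.09 (edgeR adjusted p = 0.72). These and Pdlim4 made 3 of 10 members lower under PPCA on all 3 days, against 427 of 7217 genes (5.92%). With TMM scaling Trib2 joined them, which made 4 of 10 members against 1188 genes (16.5%).

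The secreted and receptor members, Igfbp4, Selenop and Vipr1, were all lower under PPCA on day 4 and differed in direction on day 2. Igfbp4 stood at 545, 510.4 and 521 CPM under vehicle and at 586, 563.5 and 390.5 CPM under PPCA. It was above vehicle on days 2 and 3 and below it on day 4, but with TMM scaling day 3 turned, at 565 under vehicle and 549 under PPCA. The log2 fold change of Igfbp4 was -0.14 with a standard error of 0.12 (edgeR adjusted p = 0.83). Selenop stood at 93.9, 84.8 and 100 CPM under vehicle and at 111, 95.6 and 83.5 CPM under PPCA, higher on days 2 and 3 and lower on day 4. With TMM scaling the day 3 values were 93.8 and 93.2, so that difference was gone. Its log2 fold change was -0.03 (standard error 0.12, edgeR adjusted p = 0.97). Vipr1 stood at 56.9, 40.7 and 42.4 CPM under vehicle and at 38.7, 49.8 and 32.5 CPM under PPCA, lower on days 2 and 4. Its log2 fold change was -0.30 with a standard error of 0.14 (edgeR adjusted p = 0.74), and it was -0.14 without the day 2 pair and -0.50 without the day 3 pair.

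Of the remaining 4, Trib2, Myo10 and Trat1 had estimates of -0.30, -0.17 and -0.15. Trib2 was 137, 170 and 135 CPM under PPCA and 165, 159 and 187 CPM under vehicle. Trat1 was 125, 116 and 72.3 CPM under PPCA and 102, 119 and 100.1 CPM under vehicle. Klhl5 was the member with an estimate above 0, at 23.3, 18.4 and 19.7 CPM under vehicle and 22.8, 25.3 and 27.6 CPM under PPCA (log2 fold change 0.23, standard error 0.13, edgeR adjusted p = 0.77).

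**Figure D3:**
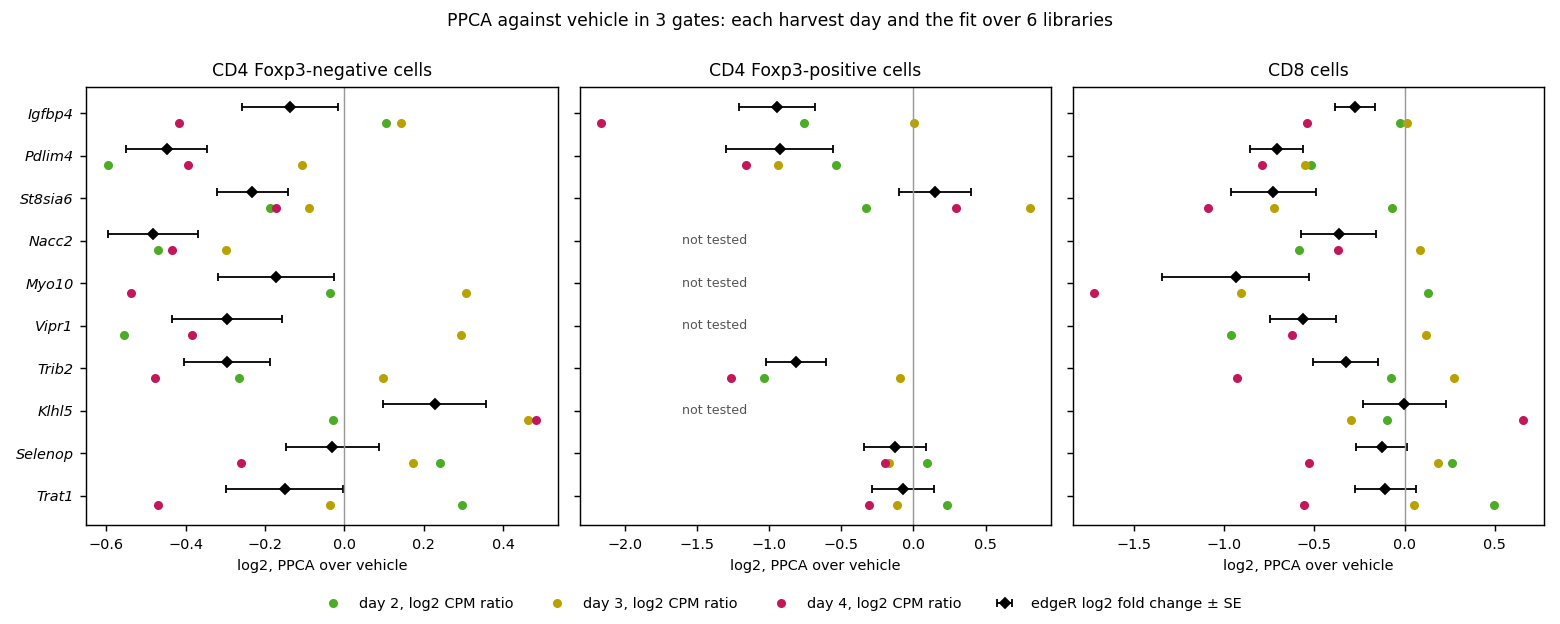
Log2 of PPCA over vehicle for each gene in 3 gates (horizontal axes, with a separate scale for each panel), as the CPM ratio on each harvest day (coloured points) and the edgeR log2 fold change with its standard error over 3 libraries per arm (black diamonds). The edgeR values are scaled by TMM and the daily ratios are not, so a diamond can lie outside its 3 points; 0 of the members passed an adjusted p of 0.05, and 4 were not tested in Foxp3-positive cells.

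The members stood lowest against vehicle on day 4. PPCA day 4 was below vehicle day 4 for 9 of 10 members (all but Klhl5), with a median log2 ratio of -0.41, where 49.9% of 7217 genes were lower and the median was 0.00. On day 2 the median was -0.11 with 7 of 10 lower, against a median of 0.03 over all genes. On day 3 it was 0.12 with 4 of 10 lower, against 0.19 over all genes. With TMM scaling the members' medians were -0.14, -0.06 and -0.44 on days 2, 3 and 4, with 7, 7 and 9 of 10 lower, where 49.2%, 49.3% and 55.8% of all genes were. No member was lower by 1.5-fold on day 4 (1.65% of genes were), and 1 was on day 2, Pdlim4 (2.38% of genes). The part of effector genes, of triggering and dissociation genes, of Y-linked transcripts and of depth in the low values of PPCA day 4 was not tested.

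In CD4 Foxp3-positive cells 6 members were expressed highly enough to be tested, and 0 of these were called, as against 2 of 6584 genes (0.0304%). The estimate was below 0 for 5 of the 6, with a median of -0.47. It was below 0 for 4 of the 6 without the day 4 pair (median -0.28) and for 5 without doublet removal (median -0.24). In the gate of the rule alone 7 members were tested and 5 were below 0, with a median of -0.15 (T cells of all barcodes, without the filters on quality, doublets and B and myeloid genes). In the main gate it was below 0 for 9 of 11 genes of the resting and naive state (median -0.28) and for 9 of 10 tested effector genes (median -0.71), with 0 genes of either list called. Pancreatic genes stood at 278 CPM in vehicle day 3 and at 0 to 64.9 CPM in the other libraries of this gate. The part of these lists in the members' values was not tested. Igfbp4 stood at 172, 117 and 281 CPM under vehicle and at 102, 117 and 62.8 CPM under PPCA. The arms overlapped in CPM, through day 3. With TMM scaling they did not, at 166, 130 and 305 under vehicle and 98, 117 and 67.7 under PPCA. Its log2 fold change was -0.95 with a standard error of 0.26 (edgeR adjusted p = 0.38), and the adjusted p was 0.042 without the day 3 pair. Without the day 4 pair the change was -0.48 (edgeR adjusted p = 0.69), and it was -0.50 without the condition on B and myeloid genes and -0.40 in the gate of the rule alone. Trib2 stood at 176, 144 and 178 CPM under vehicle and at 85.7, 135 and 74.2 CPM under PPCA, with no overlap of the arms. The counting intervals of day 3 did overlap, at 115.7 to 177.3 CPM under vehicle and 103.0 to 173.7 CPM under PPCA. The log2 fold change of Trib2 was -0.81 with a standard error of 0.21 (edgeR adjusted p = 0.32). Trib2 and Vipr1 were the 2 of 8 members averaging at least 10 CPM whose PPCA libraries all lay below the vehicle libraries, against 2.91% of 7754 genes. With TMM scaling Igfbp4 joined them, against 4.62% of genes. Vipr1 was too low to be tested in the fit, with 10, 10 and 5 UMIs under vehicle and 5, 4 and 2 under PPCA, and its counting intervals overlapped on each day (on day 3, 7.76 to 29.8 and 2.45 to 23.0 CPM). Both Igfbp4 and Trib2 passed the threshold with Y-linked transcripts as a factor (adjusted p = 0.000154 and 0.0064) and without the filter on low counts (adjusted p = 0.0043 and 0.034).

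In CD8 cells edgeR called 2 of 11694 genes (0.0171%) and 0 of the 10 members. The estimate was below 0 for all 10, with a median of -0.35, where 49.7% of all genes were below 0, but that of Klhl5 was -0.00 and turned with the scaling. In the same sums the estimate was below 0 for 9 of 11 genes of the resting and naive state (median -0.14) and 9 of 10 of triggering (median -0.32), and above 0 for 9 of 11 effector genes (median 0.31), each with 0 genes called. It was below 0 for 4 of 4 tested pancreatic genes (median -0.59), with 0 called. Their part in the members' values was not tested. On leaving out the day 2, day 3 or day 4 pair, 9, 9 and 8 of the 10 members were below 0. Their medians were then -0.36, -0.54 and -0.34. Pdlim4 stood at 14.7, 8.34 and 10.2 CPM under vehicle and at 10.2, 5.68 and 5.87 CPM under PPCA. Its log2 fold change was -0.71 with a standard error of 0.15 (edgeR adjusted p = 0.33), and it passed with Y-linked transcripts as a factor (adjusted p = 0.0061) and without the filter on low counts (adjusted p = 0.0067). Pdlim4 was the 1 of 6 members averaging at least 10 CPM that was lower under PPCA on all 3 days, against 5.33% of 7210 genes. With TMM scaling Igfbp4, Pdlim4 and Vipr1 were, or 3 of 6, against 17.0% of genes. None of the 6 had all PPCA libraries below all vehicle libraries in CPM (0.735% of genes did), and with TMM scaling Pdlim4 and Vipr1 had (3.63% of genes). St8sia6 had an estimate of -0.73 (standard error 0.24, edgeR adjusted p = 0.58) and Vipr1 of -0.56 (standard error 0.18, edgeR adjusted p = 0.58). Over the alternative fits St8sia6 ran from -1.01 to -0.53 and Vipr1 from -0.83 to -0.35. On day 4 PPCA was below vehicle for all 6 of these members, with a median log2 ratio of -0.59 against -0.01 over all genes, and 3 of them, Pdlim4, Vipr1 and Trib2, were lower by over 1.5-fold (1.32% of genes were). Whether the effect of PPCA on a member differed between gates was not tested.

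Active and onset diabetes were 1 library each, so their values carry counting error only, as exact Poisson intervals. In CD4 Foxp3-negative cells Vipr1 was 67.2 CPM (95% interval 62.9 to 71.6) in active and 46.8 CPM (43.8 to 49.9) in onset. Nacc2 was 44.3 CPM (40.9 to 48.0) and 33.4 CPM (30.9 to 36.0). Igfbp4 went the other way, at 445 CPM (434 to 457) and 547 CPM (536 to 557). Active was the lower for Igfbp4 and Klhl5 and the higher for the other 8, with a median log2 ratio of 0.16 against -0.00 over all genes. No member passed 1.5-fold in these cells, which 2.63% of genes did upward and 1.5% downward. The other gates did not share that direction. In CD8 cells active was the lower for 5 of the 6 members averaging at least 10 CPM, with a median log2 ratio of -0.23 against -0.06 over all genes, of which 59.8% were lower. Summed effector genes stood in the same CD8 sums at 2565 CPM in active and 6977 CPM in onset, triggering genes at 899 and 1650 CPM, and dissociation genes at 277 and 653 CPM. These 3 lists were lower in active in the other gates as well, and their part in the members' values was not tested. Pdlim4 and Trat1 were lower there by over 1.5-fold (3.36% of genes were). Pdlim4 stood at 10.4 CPM (8.86 to 12.1) in active and 21.8 CPM (18.8 to 25.1) in onset. Below that average, St8sia6 and Nacc2 were at 0.561 and 0.567 of their onset level in CD8 cells. In Foxp3-positive cells active was the lower for 5 of 8 members, with a median of -0.21 against 0.05 over all genes, and Igfbp4 and Trat1 were lower by over 1.5-fold (12.8% of genes were). Igfbp4 stood there at 146 CPM (111 to 189) in active and 268 CPM (227.5 to 314) in onset.

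Across the 8 libraries some members ran together in CD4 Foxp3-negative cells. Nacc2 ranged from 10.5 CPM in PPCA day 4 to 44.3 CPM in active, which at 4.24-fold was the widest range of the 10 as a ratio, and St8sia6 followed the same order of libraries, with a Pearson r of 0.992 between their log2(CPM + 1) levels. Pdlim4 ran with St8sia6 (r = 0.916) and with Nacc2 (r = 0.892), and Trat1 with Nacc2 (r = 0.869). Of the 45 pairs 37 were positive, with a median of 0.492, and the lowest was Trib2 with Klhl5 at -0.501. The points of each correlation share their library, its depth and its day, so these values are descriptions. Both day 4 libraries lay below all libraries of days 2 and 3 for 3 members, St8sia6, Nacc2 and Trat1, as they did for 28.2% of 7217 genes. With TMM scaling, which was set over the 6 vehicle and PPCA libraries, this held for Nacc2 and for 19.8% of genes.

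Genes like each member were sought outside the members, T cell receptor and immunoglobulin segments, ribosomal and mitochondrial genes and the gate genes. The gene most like each member over all 24 sums (3 gates in 8 libraries) was Lef1 for Igfbp4 (r = 0.924), Zbtb7b for St8sia6 (r = 0.965) and Satb1 for Vipr1 (r = 0.900). Zbtb7b encodes ThPOK, the factor of the CD4 lineage, and its level was 25.6 to 73.5 CPM in Foxp3-negative, 40.4 to 88.8 CPM in Foxp3-positive and 1.78 to 6.68 CPM in CD8 cells. Lef1, like Igfbp4, had its lowest levels in Foxp3-positive cells, at 148 to 514 CPM against 631 to 996 CPM in Foxp3-negative and 512 to 722 CPM in CD8 cells. For Trat1 it was Il6ra (r = 0.938), for Trib2 Mtss1 (r = 0.913), for Selenop Cd40lg (r = 0.908) and for Pdlim4 4930523C07Rik (r = 0.864). For Myo10 it was Ifi30 (r = 0.860), for Nacc2 Amigo2 (r = 0.837) and for Klhl5 Rcan3 (r = 0.787). Over the 8 Foxp3-negative sums alone other genes came first, Atp5j for Igfbp4 (r = 0.991), Rnf169 for Nacc2 (r = 0.983), Hsd17b4 for St8sia6 (r = 0.976), Kcnq1ot1 for Trat1 (r = 0.975) and Fry for Vipr1 (r = 0.973). The others were Utp23 for Selenop (r = 0.941), Stk4 for Myo10 (r = 0.934), Fgd3 for Pdlim4 (r = 0.926), Satb1 for Trib2 (r = 0.912) and Saraf for Klhl5 (r = 0.894). Each was the highest in that search, of 7357 correlations over the 24 sums or of 7088 over the 8 sums, all of which share their libraries. Among the members left out of it, St8sia6 and Nacc2 were closer to each other over the 8 sums (r = 0.992).

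Ligands, receptors and relatives of the members were examined from lists, and 0 of them were called for PPCA in any of the 3 gates. Of the insulin-like growth factor axis of 11 genes, 4 were tested in Foxp3-negative cells, and Igfbp2, Igfbp3 and Pappa had 0 UMIs there in all 8 libraries. The receptor Igf1r ran opposite to Igfbp4 between the CD4 gates, with 12.4 to 38.5 CPM in Foxp3-negative and 55.3 to 151 CPM in Foxp3-positive cells, without overlap. Of the peptide axis of Vipr1, the ligands Vip and Adcyap1 and the receptor Adcyap1r1 had 0 UMIs in all 3 gates, and Vipr2 reached 0.56 CPM in Foxp3-negative cells. All 9 T cell adaptors listed beside Trat1 were tested there, 4 with an estimate above 0 and 5 below, and Lat stood at 336 to 489 CPM in Foxp3-negative and 297 to 420 CPM in CD8 cells. Of 9 sialyltransferases, St8sia4, which builds polysialic acid, was higher in Foxp3-positive cells (121 to 238 CPM) than in Foxp3-negative cells (60.4 to 106 CPM) without overlap. Trib1, the relative of Trib2, stood at 23.1 to 166 CPM in Foxp3-positive and 2.75 to 28.0 CPM in Foxp3-negative cells. Pdlim1, Pdlim2, Pdlim5 and Pdlim7 did not share the CD4 pattern of Pdlim4, as their Foxp3-negative and CD8 ranges overlapped, and so did those of Nacc1 (12.2 to 22.9 and 14.1 to 19.8 CPM).

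Selenop and Igfbp4 are also transcribed by macrophages and stromal cells, so the markers of these cells were read in the same sums. Lyz2, Cst3 and Csf1r are among the 6 genes by which cells were left out of the gates, and the sort kept CD45+ CD3+ TcR-beta+ cells, so low levels of these markers are in part set by those steps. In CD4 Foxp3-negative cells the 8 myeloid genes together stood at 70.0 to 84.7 CPM, nearly all of it Cst3 (66.7 to 83.2 CPM), while Lyz2 was at 0 to 0.793 CPM, C1qa at 0 to 0.217 CPM and Csf1r at 0 to 0.095 CPM. Selenop stood at 83.5 to 119 CPM in the same sums. The 6 stromal and endothelial genes stood at 72.7 to 117 CPM, nearly all of it Pecam1 (72.4 to 117 CPM), with Col1a1 at 0 to 0.286 CPM and Dcn at 0 to 0.093 CPM, beside 390.5 to 586 CPM of Igfbp4. Pancreatic genes stood at 2.39 to 97.2 CPM and B cell genes at 103 to 213 CPM. Some members overlap other annotated genes, on the opposite strand for St8sia6 (Gm37126), Nacc2 (Gm13554) and Selenop (Ccdc152), and whether the counting used strand is not given in the sources used here.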

How the data were processed

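Pancreatic T cells of NOD mice were profiled in 8 droplet libraries (10x Genomics, 3′ version), per the labels' protocols. The authors deposited unnormalised counts of UMIs per gene and barcode. The submitters' processing notes name Cell Ranger 6.1.2 and Seurat, the file headers cellranger 6.0.0, and the genome build is not given in the sources used here. In the authors' deposited table of cluster markers the fraction of cells holding a gene and the order of genes by cluster were read, while its log2 fold changes and p-values were not used.

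The 10 members and all lists were chosen with earlier results of these data known. Barcodes with at least 500 genes and under 10% mitochondrial UMIs were kept, and the highest Scrublet scores (scanpy 1.11.5; 0.8% per 1000 barcodes) were removed as doublets. A T cell needed 2 or more UMIs of 6 T cell receptor genes and no more than 1 of Cd79a, Ms4a1, Lyz2, Cst3, Csf1r and Fcer1g. The last condition removed 9.98% to 19.95% of T cells, nearly all through Cst3, so sums without it were fitted as an alternative chosen after seeing the data. The filters left 6225 to 11613 barcodes in a library, and 22.0% to 35.7% of T cells fell in neither the CD4 nor the CD8 gate.

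UMI sums per library and gate were fitted with edgeR 4.0.16 (filterByExpr, TMM, glmQLFit and glmQLFTest, harvest day and treatment as terms) with Benjamini-Hochberg adjustment over all genes at 0.05. DESeq2 1.42.0 and limma 3.58.1 (voom) were alternatives. The day in the sample labels pairs vehicle and PPCA. Deviations of same-day libraries correlated at 0.341, 0.53 and 0.565 in Foxp3-negative, 0.122, 0.0421 and 0.184 in Foxp3-positive and 0.349, 0.653 and 0.58 in CD8 cells. Levels are CPM of the gate sum. These are 3′ tag counts without length scaling, so levels are compared within a gene. Simulated 2-fold changes were recovered for 74.9% of 199 genes in Foxp3-negative (11174 genes), 43% of 193 in Foxp3-positive (5895 genes) and 82.4% of 199 in CD8 cells (11311 genes). False calls were 5, 2 and 9 in that order. The simulated libraries shared a mean profile, without differences between days or in Y-linked transcripts, and their dispersion followed level alone. These shares therefore need not hold for the real libraries. Intervals are exact (95%) and cover counting error only. The text names the 10 members, list genes set beside a member and the gene most correlated with each member, sought outside the members. Zbtb7b, Lef1, Igf1r, St8sia4 and Trib1 were singled out after their values were seen. Counts with TMM scaling were added after seeing the data. A planned description of cells by marks of the resting and effector state, and 1 list gene, are not reported here.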

Additional observations from a re-analysis of the deposited data

How the results depend on the processing

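The count of genes called for PPCA depended on the fit. In Foxp3-negative cells the 0 calls became 39 with DESeq2, 135 of 19028 tested without the filter on low counts, 114 of 11576 with Y-linked transcripts as a factor and 0 to 110 on leaving out 1 harvest day, the highest without day 4. In Foxp3-positive cells the 2 calls became 0 with DESeq2, 9 with limma-voom, 44 of 14131 tested without the filter, 47 of 6584 with the Y-linked factor, 23 in the gate of the rule alone and 14 without the B and myeloid condition. They were 8 to 20 on leaving out a day. In CD8 cells the 2 calls became 42 with DESeq2, 191 of 18939 tested without the filter, 322 of 11694 with the Y-linked factor, 0 in the gate of the rule alone and 0 to 242 on leaving out a day. Without the replicate block of harvest day the counts were 0, 1 and 0, and no member's call changed.

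Members called were 1 (Pdlim4) in Foxp3-negative cells both without the filter and with the Y-linked factor, and 2 (Igfbp4 and Trib2) in Foxp3-positive cells under both. They were 2 (Pdlim4 and Vipr1) in CD8 cells without the filter and 3 with the Y-linked factor, St8sia6 being the third. On leaving out a day, members called ranged from 0 to 1 in Foxp3-positive cells (Igfbp4, without day 3) and were 0 in the other gates. The cause of these changes was not tested.

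The log2 fold change turned for some members. Trat1 in Foxp3-positive cells was 0.0101 in the gate of the rule alone. Klhl5 in CD8 cells was 0.0039 without the replicate block, 0.00275 with DESeq2 size factors, 0.00137 with DESeq2, 0.00383 with limma-voom and 1.26e-05 without doublet removal. On leaving out a day the values in Foxp3-negative cells ran from -0.238 to 0.0175 for Igfbp4, -0.321 to 0.0271 for Myo10, -0.146 to 0.101 for Selenop and -0.353 to 0.0239 for Trat1, each above 0 without day 4. In Foxp3-positive cells they ran from -0.129 to 0.536 for St8sia6 and -0.273 to 0.0325 for Trat1. In CD8 cells they ran from -0.324 to 0.242 for Klhl5, -0.275 to 0.0898 for Selenop and -0.355 to 0.129 for Trat1. Without day 4, Trib2 was -0.189 in Foxp3-negative and -0.0196 in CD8 cells, and Klhl5 in Foxp3-negative cells ran from 0.111 to 0.373. The fold changes of the other tested members in each gate kept their sign under every alternative run. All 10 ratios of Foxp3-negative to CD8 cells with the gate of the rule alone, and all 30 median levels with TMM scaling, moved by less than 1 SD over libraries, but some counts of members by day or by overlap of the arms moved with that scaling. Of 60 median shares of cells with a UMI, 51 moved by more than that with another thinning depth. The fit had 2 residual degrees of freedom. Foxp3-positive cells of all 8 libraries held 28 to 645 UMIs of a member, and the lowest, Nacc2, was not tested there. Simulated 2-fold changes were recovered for 43% of the changed genes in this gate. Smaller changes were not simulated and may have been missed.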
